A study of Zea mays with 47 samples.

Results

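The heat response of 2 genes of acyl lipid metabolism was followed in maize (Zea mays) seedling leaves, namely GRMZM2G156620, described as a 3-ketoacyl-CoA synthase, and GRMZM2G120539, described as an AMP-binding protein. They were 2 of the 17905 genes in the count table. Both were chosen by name with their log2 change from 25°C to 38°C in these same libraries known, so their heat response is described here without a test. RNA was sequenced from seedling leaves of 8 inbred lines, which represent 2 heterotic pools. L012, L017, L023 and L043 are Flint and P040, S058, S067 and S070 are Dent. Flint and Dent membership, and the classes tolerant (L012, L043, S058 and S067) and susceptible (L017, L023, P040 and S070), were taken from the study's methods and text. The groups were the 24 combinations of line and growing temperature by day (25°C, 32°C or 38°C). All plants were raised at 25°C before the heat treatment, and no treatment other than heat is given for any group. Each group had 2 libraries, except that L017 at 32°C had 1, which gives 47 libraries. Each library was a pool of leaf tissue from 5 plants. The heat levels were applied in separate growth chamber runs, so heat and run cannot be told apart.

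Very-long-chain fatty acids are built in the endoplasmic reticulum by the fatty acid elongase. 3-Ketoacyl-CoA synthase carries out its first, condensing step and sets which chain lengths are made, and in leaves the products go into cuticular wax, sphingolipids and membrane lipids. AMP-binding proteins, also called acyl-activating enzymes, join a carboxylic acid to coenzyme A by way of an adenylate. The family holds the long-chain acyl-CoA synthetases that supply the elongase, but also 4-coumarate:CoA ligases and other enzymes, and the substrate of GRMZM2G120539 is not annotated in the sources used here.

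Libraries held 3687700 to 20642205 counts with a median of 12346491. Levels are given as CPM (counts per 1000000 counts of the library, scaled by TMM, edgeR's correction for the composition of a library). The TMM factors differed between heat levels, from a median of 0.575 at 25°C through 0.881 at 32°C to 1.86 at 38°C, and 11 genes that each held more than 1% of all counts took a median of 83.2% of the counts of a library at 25°C and 57.9% at 38°C. Library totals without TMM therefore moved the median log2 slope of all genes from 0.08 to 1.86, and heat responses are read here against the bulk of the genes. By expression pattern, 28 of the 31 libraries at 25°C and 32°C were most alike the line on their label. P040 replicate 1 at 32°C was most alike S070 (r = 0.514, against -0.107 with P040), S070 replicate 1 at 32°C was most alike P040 (r = 0.619, against -0.0288 with S070), and P040 replicate 1 at 25°C was slightly nearer to L017 (r = 0.289) than to P040 (r = 0.267). P040 and S070 are both Dent and susceptible, so an exchange of labels between these lines would move no library to another pool or tolerance class. It would still alter line means and the spread in fits by line. Without these 3 libraries, the edgeR test of Flint minus Dent in the change from 32°C to 38°C called 1178 genes, against 224 with all. Green leaf and C4 markers were present in the libraries, with summed levels over 2 mesophyll markers from 1280 to 5669 CPM and over 6 light-harvesting genes from 222 to 2889 CPM.

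The 3-ketoacyl-CoA synthase gene GRMZM2G156620 was close to silent at 25°C and 32°C and was read in every library at 38°C. At 25°C it had 7 counts in all 16 libraries together, and 10 of these libraries had none. At 32°C it had 23 counts in 15 libraries, with 9 libraries at 0, and at 38°C it had 195 counts in 16 libraries, with none at 0. Its level averaged 0.0447 ± 0.0634 CPM (SD, n = 16) at 25°C, 0.103 ± 0.151 CPM (SD, n = 15) at 32°C and 0.707 ± 0.509 CPM (SD, n = 16) at 38°C. The pooled level was 14.3-fold higher at 38°C than at 25°C (95% counting interval 6.80 to 36.0), with most of the difference above 32°C, since the step from 25°C to 32°C was 2.73-fold (1.13 to 7.54) and that from 32°C to 38°C was 5.23-fold (3.39 to 8.45). These intervals cover counting error only. In bulk leaf tissue, fewer cells of a type and less RNA per cell cannot be told apart.

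The libraries of GRMZM2G156620 at the lowest and the highest heat level still met at their edges. The highest library at 25°C was L043 replicate 2 with 2 counts (0.180 CPM) and the lowest at 38°C was L043 replicate 1 with 1 count (0.0712 CPM). Every 38°C library lay above every 25°C library for 113 genes, or 0.631% of those tested, and neither of the 2 genes was among them. The gene was kept in the count table through its 38°C libraries, of which 4 reached the limit of 2 CPM of the library total, as none did at 25°C or 32°C.

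**Figure D1:**
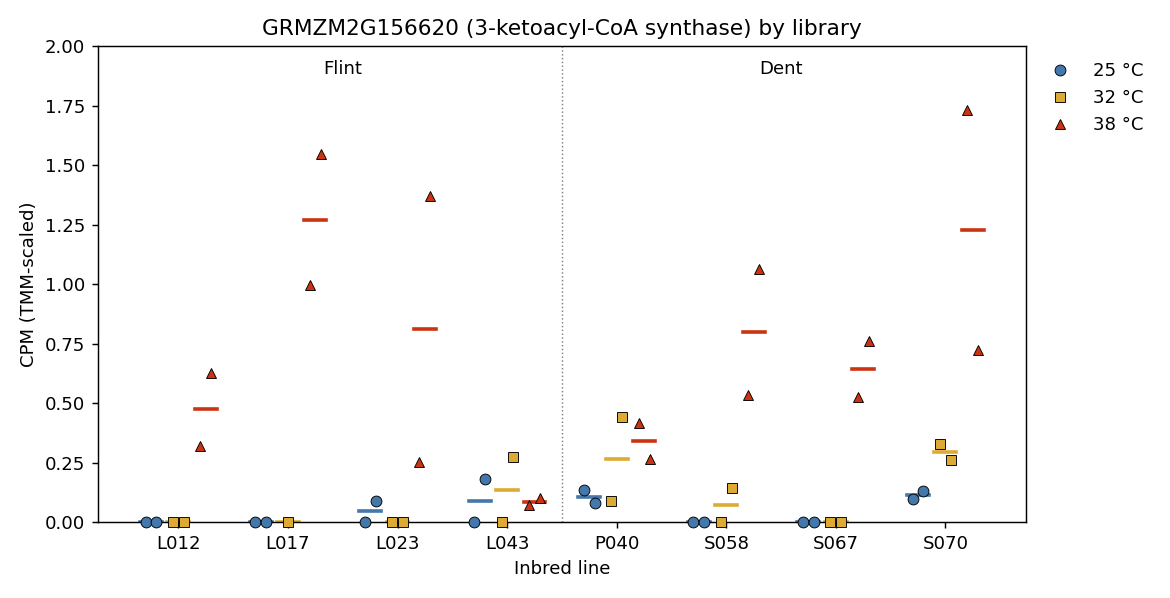
Level of GRMZM2G156620 (y axis, TMM-scaled CPM) in each of the 47 libraries by inbred line (x axis), with circles for 25°C, squares for 32°C and triangles for 38°C, and bars for the mean of a line at a heat level. The 38°C libraries lie above the other libraries of their line in 6 lines, overlap the 32°C libraries in P040, and stay near the floor in L043. The gene was picked for its rise from 25°C to 38°C.

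L043 had the lowest mean of the lines at 38°C. This tolerant Flint line had 0 and 2 counts of GRMZM2G156620 in its replicates at 25°C, 0 and 4 at 32°C, and 1 and 2 at 38°C, which is a ratio of 1.0 between 38°C and 25°C (counting interval 0.115 to 12). No rise was thus detectable in L043 at this depth, and the interval also holds large folds. P040 had 1 and 1 counts at 25°C, 1 and 8 at 32°C and 6 and 4 at 38°C, and its level was as high at 32°C as at 38°C (ratio 1.09, 0.398 to 3.03).

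In the other 6 lines both 38°C libraries lay above every cooler library of the line. GRMZM2G156620 was picked for its rise and kept through 38°C libraries, which favours this order, and the share of all genes with it was not counted. L017 had no count in its 3 cooler libraries and 17 and 30 counts at 38°C (0.996 and 1.5 CPM). L012 and S067 likewise had no count in their 4 cooler libraries, against 8 and 14 counts at 38°C in L012 (0.320 and 0.629 CPM) and 10 and 7 in S067 (0.53 and 0.76 CPM). L023 had a single count in 4 cooler libraries and 3 and 16 counts at 38°C (0.254 and 1.37 CPM). For the lines without a count at 25°C only a lower bound can be given, against 3 counts over both 25°C libraries, and the 38°C level was at least 6.47-fold higher in L017, 5.39-fold in S058, 3.76-fold in S067 and 1.54-fold in L012. For the lines with counts the ratio was 12.6 in L023 (2.0 to 524), 11.5 in S070 (3.02 to 98.1) and 3.38 in P040 (0.719 to 31.7).

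The lines in which GRMZM2G156620 was already read at 32°C were mostly Dent. S070 had 4 and 4 counts there (0.328 and 0.261 CPM), S058 had 0 and 2 (0 and 0.146 CPM), and the Dent lines together held 19 of the 23 counts. In the Flint lines all 4 counts came from L043 replicate 2. The levels of the lines at 32°C did not differ beyond the spread of replicates over all genes (edgeR quasi-likelihood F test, adjusted p = 0.106, with 29.3% of genes called), although the edgeR likelihood ratio test called the difference (adjusted p = 0.0118), as did library totals without TMM (0.0104). Flint minus Dent at 32°C was -0.63 log2 CPM over line means (exact permutation of 4 against 4 lines, two-sided p = 0.257, adjusted p = 0.571 over 12 comparisons). The Dent libraries S070 replicate 1 and P040 replicate 1 at 32°C, which resembled each other's line, held 4 and 1 of these counts.

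At 38°C the order of the line means of GRMZM2G156620 was L017 (1.27 CPM), S070 (1.23 CPM), L023 (0.812 CPM), S058 (0.800 CPM), S067 (0.644 CPM), L012 (0.474 CPM), P040 (0.339 CPM) and L043 (0.0867 CPM). Neighbours in this order had overlapping replicates, except P040 and L043. The F test of the 8 lines at 38°C gave an adjusted p of 0.0496, where 38.8% of all genes were called. The gene had entered the count table only through 4 libraries at this heat level, both of L017, S058 replicate 2 and S070 replicate 1, so it was kept for high values in some lines and this p is no independent sign of a difference. This call was lost with DESeq2 (adjusted p = 0.183) and when any of 26 single libraries was left out, and without L043 replicate 2 at 38°C the adjusted p was 0.152. The tolerant lines averaged 0.501 ± 0.334 CPM (SD, n = 8 libraries) and the susceptible lines 0.912 ± 0.589 CPM (SD, n = 8 libraries), which over line means was a log2 difference of -0.67 (exact permutation, two-sided p = 0.286, adjusted p = 0.571). At 25°C no difference between lines was detected (adjusted p = 0.605, with 27.5% of genes called).

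As a straight line over the heat levels, GRMZM2G156620 had a log2 slope of 3.93 (SE 0.564), given as a description since the gene was picked for it, where 2.52% of all genes rose with a slope above 2 at an adjusted p under 0.05. Slopes of single lines are not given for the 4 lines without counts at 25°C, because there the fit has no finite value. Of the others, S070 had 3.60 (SE 0.794), L023 5.09 (SE 1.75), P040 1.52 (SE 1.16) and L043 -0.06 (SE 1.49), and without L043 replicate 2 at 25°C the slope of L043 was 0.80. Without L023 replicate 2 at 38°C the slope of L023 was 2.26. The quasi-likelihood F test of differences in slope between the 8 lines gave an unadjusted p of 0.00301, where 8.25% of all genes were below 0.05. It did not pass after adjustment (adjusted p = 0.234, with 0.173% of genes called). The edgeR likelihood ratio test called the difference (adjusted p = 0.00981) and DESeq2 did not (0.400). The gene was kept for high values at 38°C in some lines, and 4 lines have no finite slope. These p-values are therefore no independent sign of a difference in slope. The term for a departure from the straight line at 32°C was -0.73 (SE 0.567, adjusted p = 0.377), with 24.5% of genes called. Since the gene was kept only through 38°C libraries, this term is no independent test either. Slope differences between pools or tolerance classes could not be estimated for this gene.

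The AMP-binding protein gene GRMZM2G120539 was read in 46 of the 47 libraries and had a higher mean at each heat level than at the one below. Its level was 0 to 3.97 CPM at 25°C with a median of 1.5 (mean 1.57 ± 0.937 CPM, SD, n = 16), 0.869 to 6.65 CPM at 32°C with a median of 3.36 (mean 3.40 ± 1.53 CPM, SD, n = 15) and 1.98 to 15.1 CPM at 38°C with a median of 6.76 (mean 7.54 ± 3.94 CPM, SD, n = 16). The pooled level was 4.32-fold higher at 38°C than at 25°C (counting interval 3.77 to 4.96), made up of 2.09-fold (1.79 to 2.44) up to 32°C and 2.07-fold (1.89 to 2.27) above it. The heat levels overlapped, as L023 replicate 2 at 25°C (3.97 CPM) lay above P040 replicate 2 at 38°C (1.98 CPM).

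The log2 slope of GRMZM2G120539 over all lines was 2.22 (SE 0.268), just inside the limit of 2 for a heat responsive gene and again a description. Without TMM it was 3.97, which is 2.11 above the median of all genes, against 2.14 above the median with TMM. The slope was positive in 8 of 8 lines, from 1.70 (SE 0.735) in P040 and 1.73 (SE 0.406) in S058 to 2.49 (SE 0.551) in L043 and 2.65 (SE 0.609) in S070, with a mean of 2.21 ± 0.342 (SD, n = 8 lines). As the gene was picked for its rise in these same lines, the shared sign is no independent support. The share of all genes with a positive slope in every line was not counted. The order of the lines is not firm. With 1 library of the line left out, the slope ran from 1.41 to 2.70 in L017 (lowest without replicate 1 at 38°C), from 1.62 to 2.87 in L043 (lowest without replicate 1 at 38°C) and from 1.15 to 2.45 in P040 (lowest without replicate 1 at 38°C). In L023 it was 1.55 without replicate 1 at 25°C, the library without a count.

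No difference in slope between lines was found for GRMZM2G120539 (quasi-likelihood F test, adjusted p = 1). The slope of the Flint lines minus that of the Dent lines was 0.19 (95% interval -0.92 to 1.31, adjusted p = 0.971, with 0.162% of genes called), and that of the tolerant minus the susceptible lines was 0.07 (-1.0 to 1.15, adjusted p = 1, with 0.00559% of genes called). With the lines as the unit the exact p was 0.457 for the pools and 0.83 for tolerance. The intervals reach about 1 log2 unit in either direction, and the sign of both differences changed under some alternatives. Nor did the levels of the lines differ at 25°C (adjusted p = 0.700), 32°C (0.387) or 38°C (0.297) by the same test, but at 32°C library totals without TMM gave an adjusted p of 0.0279.

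**Figure D2:**
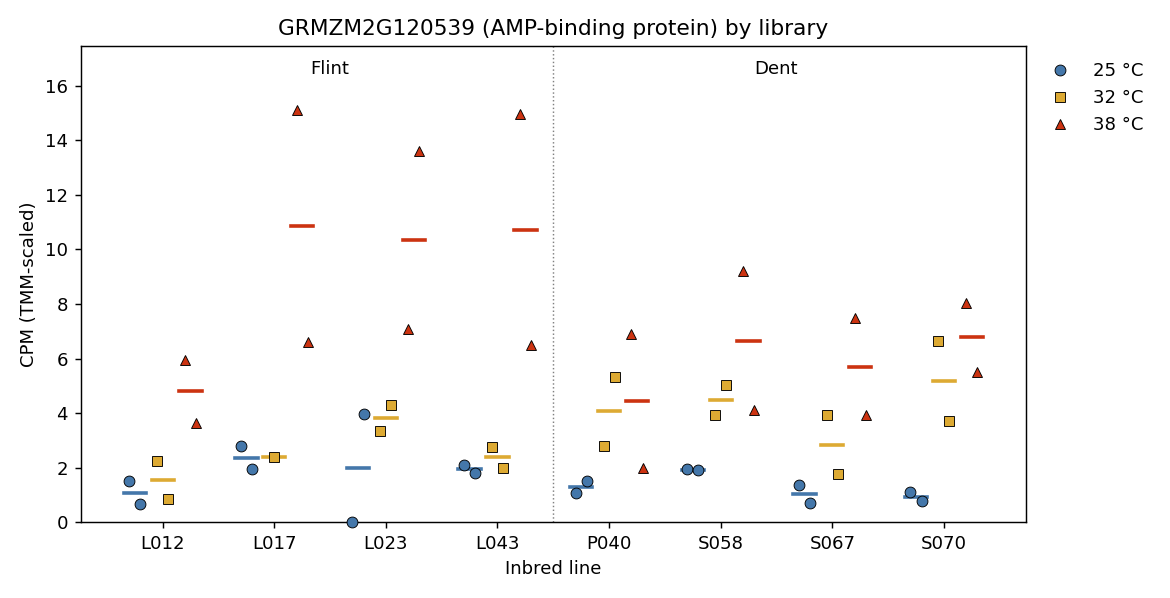
Level of GRMZM2G120539 (y axis, TMM-scaled CPM) in each of the 47 libraries by inbred line (x axis), with circles for 25°C, squares for 32°C and triangles for 38°C, and bars for the mean of a line at a heat level. Line means at 38°C run from 4.45 CPM in P040 to 10.9 CPM in L017, and at 32°C the Dent lines, apart from S067, have the highest means.

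The values of GRMZM2G120539 at 32°C are given by line, first for the Flint lines. In L017 it was 2.78 and 1.95 CPM in the replicates at 25°C, 2.39 CPM at 32°C, and 15.1 and 6.60 CPM at 38°C. In L043 it was 2.11 and 1.80 CPM at 25°C, 2.77 and 1.97 CPM at 32°C, and 14.9 and 6.49 CPM at 38°C. In L012 it was 1.5 and 0.656 CPM, then 2.24 and 0.869 CPM, then 5.96 and 3.64 CPM. In these 3 Flint lines the libraries at 25°C and 32°C overlapped and those at 38°C lay above both. The fourth, L023, had 0 and 3.97 CPM at 25°C, 3.36 and 4.29 CPM at 32°C, and 7.10 and 13.6 CPM at 38°C, with the same overlap.

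In the 4 Dent lines both libraries at 32°C lay above both at 25°C. The share of all genes with such an order of libraries was counted neither here nor for the Flint lines. In S070 GRMZM2G120539 was 1.09 and 0.788 CPM at 25°C, 6.65 and 3.72 CPM at 32°C, and 8.04 and 5.52 CPM at 38°C. In P040 it was 1.08 and 1.51 CPM at 25°C, 2.81 and 5.32 CPM at 32°C, and 6.91 and 1.98 CPM at 38°C, with a pooled ratio of 1.0 above 32°C (counting interval 0.780 to 1.29). This ratio averages 38°C replicates that lie far apart, and without the 3 libraries that did not resemble their line the P040 step from 32°C to 38°C was -0.50 log2 CPM, against -0.05 with all. In S058 it was 1.96 and 1.91 CPM, then 3.94 and 5.03 CPM, then 9.20 and 4.12 CPM, and in S067 1.36 and 0.715 CPM, then 3.91 and 1.75 CPM, then 7.47 and 3.91 CPM.

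In the 4 Flint lines the fold of GRMZM2G120539 on pooled counts from 25°C to 32°C was 1.03 to 1.40. In the 4 Dent lines it was 2.37 to 5.22. From 32°C to 38°C the fold was 2.62 to 4.45 in the Flint lines and 1.0 to 2.42 in the Dent lines. On pooled counts the pools overlapped at neither step, but the share of all genes that part them so was not counted. On line means the lower step did overlap (Flint 0.04 to 2.27, Dent 1.14 to 2.23 log2 CPM). The pattern on pooled counts was noticed in the values, and the steps were then tested on the same libraries. In log2 CPM over line means, the step from 32°C to 38°C was 1.74 ± 0.321 in the Flint lines and 0.45 ± 0.430 in the Dent lines (SD, n = 4 lines each), and the exact permutation test gave p = 0.0286, the smallest that 4 against 4 lines allow, with an adjusted p of 0.229 over 8 comparisons. The edgeR quasi-likelihood test of the same difference gave 1.33 (95% interval 0.356 to 2.31) and an adjusted p of 0.147 over all genes, where 1.25% of genes were called. The difference did not pass the threshold after adjustment, and without the 3 libraries that did not resemble their line it was 1.31 (adjusted p = 0.112).

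**Figure D3:**
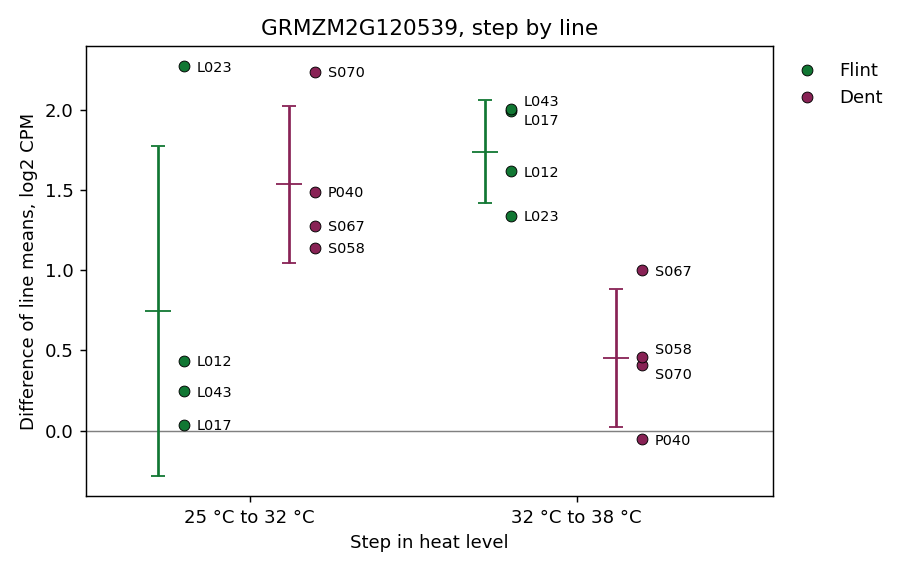
Difference between line means of GRMZM2G120539 (y axis, log2 CPM with a prior count of 2) over the step from 25°C to 32°C and the step from 32°C to 38°C (x axis), with a point per line and the mean ± SD of the 4 Flint and the 4 Dent lines. At the upper step the Flint lines lie between 1.34 and 2.0 and the Dent lines between -0.05 and 1.0, and at the lower step L023 lies apart from the other Flint lines at 2.27.

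At the lower step, 3 Flint lines (0.04 to 0.43 log2 CPM) lay below the 4 Dent lines (1.14 to 2.23), and L023 lay above them at 2.27. Replicate 1 of L023 at 25°C was the only library without a count of GRMZM2G120539. It was also the shallowest library at 25°C, with 7747441 counts, where 1 count was worth 0.221 CPM, while replicate 2 had 44 counts (3.97 CPM). The step from 25°C to 32°C was 0.75 ± 1.03 log2 CPM in the Flint lines and 1.53 ± 0.488 in the Dent lines (SD, n = 4 lines each, exact p = 0.229, adjusted p = 0.571). edgeR gave a Flint minus Dent difference of -1.32 (adjusted p = 0.525, with 0.0614% of genes called). Between tolerant and susceptible lines the steps differed with exact p = 0.286 and 0.514 (adjusted p = 0.571 and 0.800). The departure from a straight line over all lines was -0.06 (95% interval -0.505 to 0.394, adjusted p = 0.900).

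At 38°C, replicate 1 of GRMZM2G120539 was higher than replicate 2 in 7 of 8 lines, at 25°C in 6 of 8 and at 32°C in 4 of 7. For GRMZM2G156620 replicate 2 was the higher in 6 of 8 lines at 38°C. How many other genes lean to one replicate was not counted. The spread between replicates of GRMZM2G120539 at 38°C was wide, up to 15.1 against 6.60 CPM in L017 and 14.9 against 6.49 CPM in L043. The order of the line means at 38°C ran from L017 (10.9 CPM), L043 (10.7 CPM) and L023 (10.4 CPM) through S070 (6.78 CPM), S058 (6.66 CPM), S067 (5.69 CPM) and L012 (4.80 CPM) to P040 (4.45 CPM), and no neighbours in it were apart beyond their replicates. At 32°C it ran from S070 (5.18 CPM) to L012 (1.56 CPM), again with all neighbours overlapping, and at 25°C from L017 (2.36 CPM) to S070 (0.940 CPM), where only S058 (1.93 CPM) and P040 (1.29 CPM) were apart. The rank of S070 at 32°C rested on replicate 1 (6.65 CPM), a library that resembled P040, and replicate 2 alone (3.72 CPM) lies below the mean of S058 (4.48 CPM).

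Across the 47 libraries the log2 CPM of the genes GRMZM2G156620 and GRMZM2G120539 correlated at r = 0.601, and at r = 0.175 once the mean of each heat level was subtracted, where the points share lines, heat levels and library depth. The genes most alike GRMZM2G156620 were GRMZM5G833699 (r = 0.802), GRMZM2G083810 (r = 0.794) and GRMZM2G361605 (r = 0.793), and after subtraction GRMZM2G180328 (r = 0.639), GRMZM2G061626 (r = 0.637) and GRMZM2G172230 (r = 0.615). Those most alike GRMZM2G120539 were GRMZM2G445634 (r = 0.827), GRMZM2G392320 (r = 0.818) and GRMZM2G046407 (r = 0.811), and after subtraction GRMZM2G312661 (r = 0.766), GRMZM2G023436 (r = 0.730) and again GRMZM2G445634 (r = 0.705). GRMZM2G445634 was thus alike GRMZM2G120539 both over the heat levels and within them.

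The study had put GRMZM2G079256 in the same functional class of fatty acid synthesis and elongation. Its classes listed only genes already called heat responsive in these libraries, so the rise of this gene is also a description without a test. GRMZM2G079256 had 8 counts at 25°C, 88 at 32°C and 175 at 38°C. Its pooled level was 9.14-fold higher at 32°C than at 25°C (counting interval 4.44 to 21.8) and 1.23-fold higher at 38°C than at 32°C (0.945 to 1.6), and P040 (29) and S070 (36) held most of the counts at 32°C, where each had a library that resembled the other line. In L012 and L023 the level was 5.79-fold (1.46 to 50.1) and 4.76-fold (1.08 to 43.4) higher at 38°C than at 32°C. GRMZM2G156620 had no count in 9 of the 15 libraries at 32°C, and GRMZM2G079256 in 4 of them. The log2 slope of GRMZM2G079256 was 2.87 (SE 0.641). The genes next to GRMZM2G120539 on either side, GRMZM2G068277 and GRMZM2G120578, rose less, with log2 slopes of 0.52 (SE 0.181, adjusted p = 0.0170) and 0.55 (SE 0.133, adjusted p = 6.63e-04).

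Some other genes of the pathway were found by their symbols, and the lists are incomplete. Of 6 wax and elongase genes in the reference, 3 could be matched to the count table, and of 13 of fatty acid synthesis and desaturation, 11. No listed gene carries the symbol of a 3-ketoacyl-CoA synthase or a long-chain acyl-CoA synthetase. Over all genes 24.3% rose and 19.7% fell (quasi-likelihood test, adjusted p under 0.05) with a median log2 slope of 0.08, and the directions below hold against that median, which was 1.86 without TMM. Of 3 genes of wax formation and the elongase, 2 fell and none rose, with a median of -2.10. These were gl1 (glossy1, GRMZM2G114642), which is needed for leaf wax, at -2.10 (SE 0.388, adjusted p = 1.93e-05) from 6.68 ± 4.14 CPM at 25°C to 1.56 ± 0.990 CPM at 38°C (SD, n = 16), and GRMZM2G066578, which carries the name of CER1, an enzyme of wax alkane formation in Arabidopsis, at -2.33 (SE 0.444, adjusted p = 3.09e-05). Both slopes were below -2, where 0.838% of all genes fell that far. The third, gl8b (GRMZM2G087323), a ketoacyl reductase of the elongase, had a slope of -0.14 (SE 0.235, adjusted p = 0.649). Without TMM the slopes of gl1 and GRMZM2G066578 were -0.39 and -0.51 and did not pass the test (adjusted p = 0.311 and 0.228), and gl8b was called as rising, while relative to the median of all genes gl1 stood at -2.25 and GRMZM2G066578 at -2.37.

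Of 11 genes of fatty acid synthesis and desaturation, 4 rose and none fell, with a median of 0.25, and without TMM all 11 were called as rising. ACC1 (GRMZM5G858094), an acetyl-CoA carboxylase, rose by a log2 slope of 0.85 (SE 0.135, adjusted p = 1.50e-06) from 39.3 ± 6.19 CPM at 25°C to 69.8 ± 20.3 CPM at 38°C (SD, n = 16). FatB (GRMZM5G829544), an acyl-ACP thioesterase, rose by 0.90 (SE 0.328, adjusted p = 0.0220), fab1 (GRMZM2G099696) by 0.80 (SE 0.189, adjusted p = 5.44e-04) and fad6 (GRMZM2G078569), a plastid desaturase, by 0.46 (SE 0.140, adjusted p = 0.00664). Of 2 acyl activation genes, AAE (GRMZM2G074759), named as an acyl-activating enzyme, rose by 0.99 (SE 0.222, adjusted p = 2.88e-04). The other, 4CL (GRMZM2G075333), named as a 4-coumarate:CoA ligase of phenylpropanoid metabolism, fell by 1.18 on the log2 scale (SE 0.314, adjusted p = 0.00193). Without TMM the slope of 4CL was positive at 0.72 and did not pass the test (adjusted p = 0.0623). Relative to the median of all genes it then stood at -1.13. The slopes of these 16 genes ran from -2.33 to 0.99, and neither GRMZM2G156620 nor GRMZM2G120539 was in the lists.

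**Figure D4:**
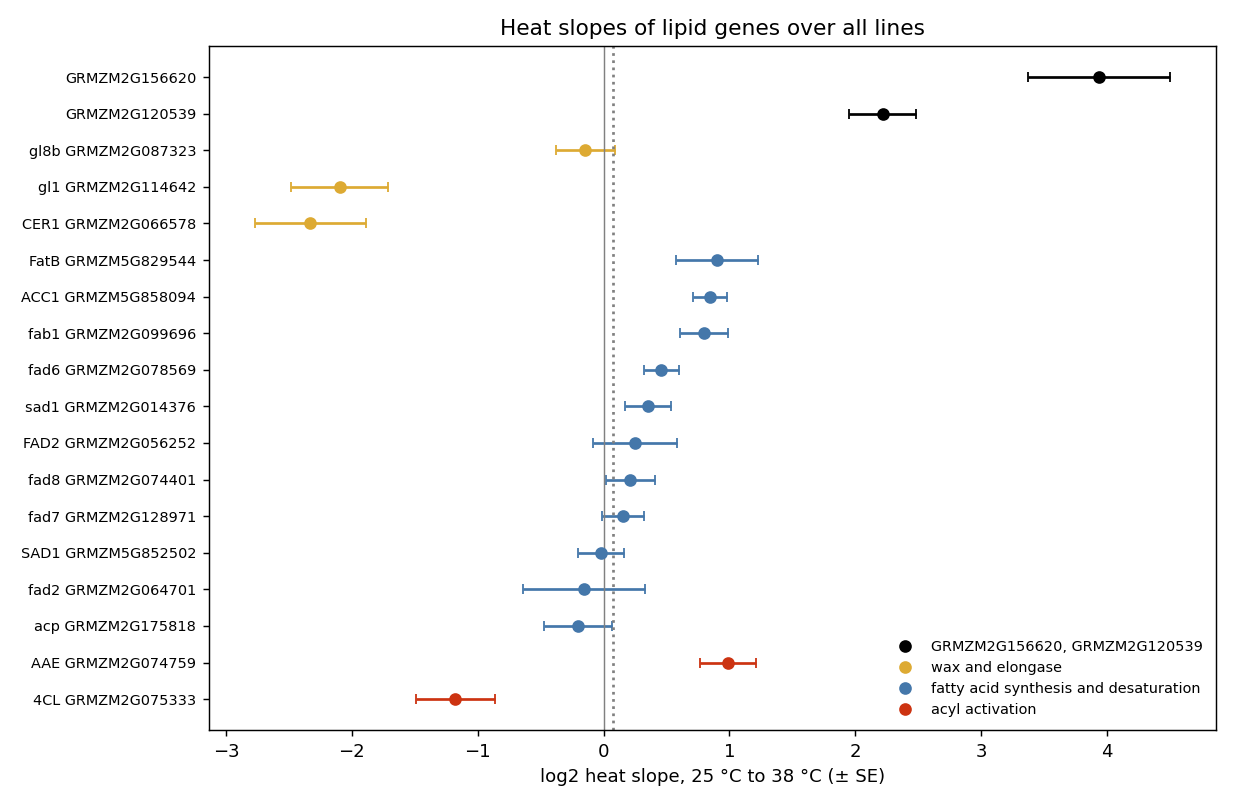
Log2 slope from 25°C to 38°C over all lines (x axis, point ± SE) of GRMZM2G156620, GRMZM2G120539 and the genes of 3 pathway lists (y axis), with a solid line at 0 and a dotted line at the median of all genes, 0.08. The wax genes gl1 and GRMZM2G066578 lie below -2 and the genes of fatty acid synthesis between -0.20 and 0.90.

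Markers of cell layers moved with the heat levels as well, and their part in the results above was not tested. Only part of the markers in the reference could be matched to the count table. These were 4 of 7 epidermis genes, 3 of 15 division genes and 0 of 6 leaf base or meristem genes. Of 4 epidermis markers 3 fell and none rose (gl1, ocl1 and ocl5), with a summed level of 10.9 to 35.0 CPM at 25°C and 6.53 to 14.1 CPM at 38°C. Of 2 mesophyll markers 1 fell (pdk1), of 4 bundle sheath markers 2 fell (me3 and rca1) and of 6 light-harvesting genes 2 fell (lhcb3 and lhcb7), with none rising in these lists, and none of 3 genes of dividing cells passed the test. Without TMM these falls were lost, and 2 mesophyll, 4 bundle sheath, 4 light-harvesting, 3 epidermis and 3 division genes were called as rising. The root hair gene rth3 (GRMZM2G377215) rose by a log2 slope of 2.79 (SE 0.437, adjusted p = 1.09e-06), from 0.223 ± 0.252 CPM at 25°C to 1.69 ± 1.36 CPM at 38°C (SD, n = 16).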

How the data were processed

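Gene counts of 47 libraries were used as deposited. Per the study's methods the authors removed ribosomal RNA, sequenced 100-bp single-end reads on an Illumina HiSeq2000, aligned them with TopHat2 2.0.3 to B73 RefGen_v3, counted reads per protein-coding nuclear gene with easyRNASeq and kept genes with at least 2 CPM in at least 2 samples, and the deposited values are raw counts per gene. Whether counting used strand is not given in the sources used here. All 47 columns were matched to their labels.

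Counts were scaled by TMM and tested with the quasi-likelihood F test of edgeR 4.0.16 in R 4.3.3 over all 17905 genes, with Benjamini-Hochberg adjustment. The heat level was coded 0, 0.538 and 1, so that a log2 slope is the change from 25°C to 38°C. A heat responsive gene has a slope beyond 2 and an adjusted p under 0.05. Models held a slope over all lines, a slope per line, a term for 32°C, or a mean per line and heat level. Line sets of 4 against 4 were compared by two-sided exact permutation in SciPy 1.17.1, and folds of pooled counts have exact binomial intervals at 95%. With a group at 0, folds were set against 3 counts over the group. Log2 CPM used a prior count of 2. DESeq2 1.42.0, the likelihood ratio test, other scalings and filters, a replicate term and leaving out libraries were alternatives. The tests of the heat slope, the term for 32°C, and Flint minus Dent in slope and in the step to 38°C were tried on simulated counts. Changes were planted only in genes with a mean above 0 log2 CPM, which leaves out GRMZM2G156620 (-0.92). The simulated lines had no difference in level at 25°C.

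The members and lists were chosen with earlier results of these data known. Pathway and marker lists were made by gene symbol, through a RefSeq table of assembly Zm-B73-REFERENCE-NAM-5.0 that matched 12358 of 17905 genes, and protein families were not analysed. From each list the 4 called genes of at least 0 log2 CPM with the largest slopes were named, besides both neighbours of a member, the 3 genes most correlated with it and GRMZM2G079256. FatB and gl8b fell outside this rule and were named after their values were seen. The replicates are separate pools of plants. In the models with a mean per line and heat level, p-values measure the spread between these pools within a chamber. In the other models the spread also holds what their terms leave out. The heat slope over all lines has no term for line, so differences between lines enter its spread. Its 47 libraries from 8 lines are treated there as independent. The exact permutation tests measure the spread between lines.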

Additional observations from a re-analysis of the deposited data

Results flagged for a closer look

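For GRMZM2G156620, the count of L043 replicate 2 at 32°C was the only one above 0 among the Flint libraries at that heat level, with 0.272 CPM (4 counts) where the other 6 had no count. Since those are tied at 0, any count in a single library would have stood out in the same way, and the size of this one bears no weight. It was the only 1 of 20 groups looked at, over line means, libraries of a pool and slopes, in which a value lay far from the others, and chance gives such a gap in about 1 group of 20.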

How the results depend on the processing

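The alternatives were DESeq2, the edgeR likelihood ratio test, DESeq2 size factors, leaving genes above 1% of counts out of the scaling, filterByExpr, a replicate block and leaving out each library, with the spread of the full set kept in the last. Library totals without TMM, all step comparisons and the exact tests of levels were chosen after seeing the data. Of 499 values under settings other than a left-out library, 441 counted as unchanged, and of 1380 values with a library left out, 1253. A test counted so if it kept its side of the threshold and, where it has one, its direction. Slopes had to stay within their SD or SE of the main value, and numbers of genes near it. For the heat slope of GRMZM2G156620 this SD was 3.81, taken over slopes by line that include lines without a finite value. Its slope of 5.49 without TMM, against 3.93 with TMM, thus counted as unchanged, and for this slope the label says little. Families by protein identity were not run. filterByExpr dropped GRMZM2G156620, so no value of it stands there, and depth limits this gene at 25°C and 32°C to 0 to 8 counts a library.

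For GRMZM2G156620 the likelihood ratio test gave adjusted p = 0.00981 for slopes between lines and 0.0118 for levels at 32°C, totals gave 0.0104 for the latter, and DESeq2 gave 0.183 at 38°C. The L043 slope of -0.06 turned to 0.031 with the replicate block and 1.31 with totals, and ran from -1.03 to 0.80 with a library left out. The adjusted p at 38°C ran from 0.0261 to 0.152 with a library left out. For GRMZM2G120539, totals gave a heat slope of 3.97, a mean slope over lines of 4.06, a Flint minus Dent difference of -0.10 and adjusted p = 0.0279 for levels at 32°C, and the tolerance difference turned to -0.029 with DESeq2 and -0.014 with the likelihood ratio test. With a library left out, Flint minus Dent ran from -0.029 to 0.73, the tolerance difference from -0.46 to 0.29, the departure from linearity from -0.16 to 0.021, and the steps from -1.51 to 0.66 and 1.16 to 1.63. The values 0.73, -0.46 and 0.66 come from leaving out L023 replicate 2 at 25°C, which leaves that line with no count there. The step of 0.66 then depends on the prior count and says nothing of the direction. The causes were not tested.

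Over all genes, heat responsive genes that rose numbered 229 with filterByExpr and 7467 with totals (452 with TMM), and those that fell 20 with totals (150). Slope differences between lines were called for 226 genes by DESeq2 and 331 by the likelihood ratio test (31), and for 7 to 48 with a library left out. Flint minus Dent slopes were called for 97, 123 and, without the 3 libraries that did not resemble their line, 58 genes (29), and for 9 to 59 with a library left out. Tolerance slopes were called for 12 and 11 genes, 2 with the block and 18 with totals (1), and for 0 to 4 with a library left out. Levels at 32°C were called for 11900 genes with totals (5250). The step to 32°C was called for 34, 58, 17 (block), 19 (totals) and 94 genes (without the 3 libraries; 11), range 3 to 94, and the step to 38°C for 451, 756, 441, 103 and 1178 genes (224), range 58 to 977. With totals the genes of the lists that rose were 11 of fatty acid synthesis, 4 of bundle sheath, 4 of green leaf, 3 of epidermis, 3 of division, 2 of mesophyll and 1 of wax, and 0 fell in the acyl activation, wax and marker lists.

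Deviations of same-numbered libraries correlated at -0.124 to 0.342 (median 0.15) over 22 pairs of groups of a line and -0.240 to 0.445 (median 0.203) over 77 pairs at a heat level. The medians were positive but some pairs were negative, and no label says that a number marks a shared batch, so the numbers were not taken to pair the samples and the replicate block is an alternative. It gave an adjusted p of 0.0245 for GRMZM2G156620 levels at 38°C and changed no call of either gene.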
